A study of Mus musculus with 80 samples.

Results

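The comparison examined here was that of mouse embryonic stem (mES) cells carrying a catalytically mutated METTL3 transgene, D395A, with cells carrying the WT transgene, in chromatin-associated RNA taken before any drug was added. It rests on 8 of the 80 libraries of the series, 4 from XX cells and 4 from XiO cells. In XX cells, 2 libraries of clone D395A_1F were set against 2 of clone WT_P2B3, and in XiO cells, 2 libraries of clone D395A_9F were set against 2 of clone WT_1A. All 4 clones came from the same parent, clone H5 of a C-terminal METTL3 degron line, made in interspecific (Mus castaneus × 129) female mES cells with a TetOn promoter in front of Xist on the castaneus X chromosome. The transgenes encode a GFP–METTL3 fusion under the constitutive promoter of the Rosa26 locus. XiO cells have kept only the X chromosome with inducible Xist. Since doxycycline (Dox), which induces Xist, and the degrader dTAG-13 had not been given, every library here still carried the endogenous, degron-tagged METTL3 beside the transgene. Cells were grown on mitotically inactivated mouse fibroblast feeders. Each group is 1 clone with 2 libraries. The labels name these only as replicates, and the word experiment below stands for the replicate number. For the transgene lines, the p-values below thus measure the spread between replicates within clones, pooled over all groups of a table. Transgene and clone cannot be told apart within a table.

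METTL3 is the catalytic subunit of the nuclear complex that places N6-methyladenosine (m6A) on RNA as it is transcribed, together with METTL14 and the adaptor WTAP. m6A is read by YTH-domain proteins, and in mES cells it is best known for limiting the lifetime of many transcripts, including those of pluripotency factors. The D395A change replaces the aspartate of the DPPW motif in the methyltransferase pocket, and the mutated protein is used as a catalytically inactive control. The stretch of the endogenous Mettl3 gene that encodes this motif lies on the minus strand at chr14:52297557-52297616 (GRCm38), in coding segment 6 of 11 of the 580-codon reading frame. It is shown because it is the site that sets the groups apart, with the codon of the mutated aspartate in capitals (52297590 to 52297592).
Mettl3, minus strand: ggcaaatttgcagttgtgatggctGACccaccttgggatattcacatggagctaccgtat
This is the reference sequence of the endogenous gene, and the transgenes' own sequence was not analysed here.

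The 8 libraries held 9.88 to 33.1 M reads on genes, so 1 read was worth 0.0302 to 0.101 counts per M (CPM). Mettl3, which checks the labels only in part because transgene reads cannot be separated from endogenous ones in these tables, did not differ by call. In XX cells it stood at 43.0 and 31.8 CPM in WT and at 41.2 and 48.5 CPM in D395A, and in XiO cells at 68.5 and 62.9 CPM in WT and at 74.6 and 57.4 CPM in D395A. The groups overlapped in both tables (log2 differences 0.27 ± 0.21 SE, adjusted p = 0.60, and −0.00 ± 0.20, adjusted p = 0.998, limma). Markers of mES cells were present in every library: Pou5f1 ranged from 32.6 to 65.1 CPM, Nanog from 21.5 to 60.6 CPM and Esrrb from 234 to 1075 CPM. Sox2, whose gene lies inside the longer transcript Sox2ot, was listed at 0 in all 8. The WT libraries stood further apart between experiments than the D395A libraries. In XX cells, 673 genes (5.04%) differed more than 2-fold between the 2 WT libraries and 57 (0.427%) between the 2 D395A libraries, and in XiO cells the counts were 1030 (7.66%) and 436 (3.24%). The summed level of 20 markers of the fibroblast feeders also moved with the groups. It was 82.1 and 80.8 CPM in WT XX against 55.9 and 42.2 CPM in D395A XX, and 128 and 148 CPM in WT XiO against 53.6 and 98.0 CPM in D395A XiO. The part of the feeders in the results was not tested, and in such bulk libraries fewer cells of a type and less RNA per cell cannot be told apart.

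In XX cells, 525 of 13364 genes tested differed between D395A and WT (3.93%, limma, adjusted p below 0.05). Of these, 99 were higher (0.741%) and 426 lower (3.19%) in D395A. In XiO cells, 486 of 13448 genes differed (3.61%), 189 higher (1.41%) and 297 lower (2.21%). Among the 13042 genes tested in both tables, 51 differed in the same direction in both (0.391%). These made up 9.96% of the XX calls and 11.2% of the XiO calls among genes tested in both. Of the 51, 45 were lower (0.345%) and 6 higher (0.046%) in D395A, and 8 further genes differed in opposite directions (0.0613%). The libraries of D395A and WT did not overlap for any of the 51 in either table, which follows from how they were chosen (24.7% of all XX genes and 21% of all XiO genes lay wholly lower in D395A, and 18.2% and 15.5% wholly higher). The counts rest on the spread shared by all 16 libraries of a table. From the 4 untreated libraries alone, limma called 41 genes in XX cells, 1 in XiO cells and 0 in both, where 1628, 1336 and, in the same direction, 326 had an unadjusted p below 0.05. Leaving out any library of the 8 lowered the counts. Without the first or second WT experiment, or the first or second D395A experiment, 221, 194, 152 and 144 genes were called in XX cells, and 104, 174, 109 and 197 in XiO cells. The same omissions left 24, 18, 12 and 14 same-direction genes when the library was from XX cells, and 20, 25, 18 and 31 when it was from XiO cells. On reads recovered from the CPM values, edgeR called 47 same-direction genes, 43 of them among the 51, and DESeq2 called 142, which included all 51. With libraries of the same clone and experiment as a random block, chosen after seeing the data, limma called 84, but only 33 of the 51 kept both calls. Of the XX calls, 18.9% were higher in D395A by limma and 31.1% by DESeq2.

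**Figure D1:**
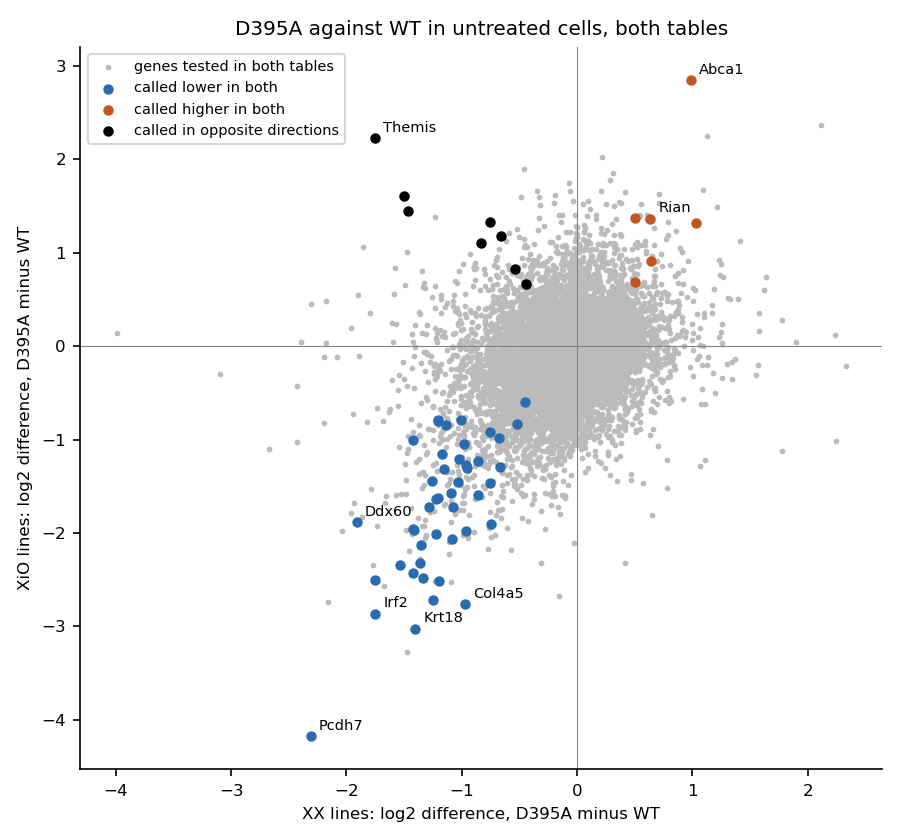
Log2 difference between D395A and WT, untreated, in XX cells (horizontal axis) and XiO cells (vertical axis) for each gene tested in both tables (log2 of CPM + 1). Genes called in both tables in the same direction (45 lower and 6 higher) and in opposite directions (8) are coloured.

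The 45 genes that were lower in D395A in both pairs of clones were mostly of low or middle level, and the differences were larger in XiO than in XX cells for most: over all 51, the XiO difference was the larger in 44. By the smaller of the 2 differences, the leading gene was Pcdh7, a protocadherin of cell adhesion (chr5, listed start 57718021 and listed length 414221 bp, GRCm38). It stood at 9.60 and 20.8 CPM in WT XX against 2.31 and 1.83 CPM in D395A XX, and at 173 and 161 CPM in WT XiO against 6.82 and 10.1 CPM in D395A XiO. In each table both D395A libraries thus lay below both WT libraries, and the WT level was several times higher in XiO than in XX cells, with the reservation that the tables were normalised separately. The log2 differences were −2.31 ± 0.51 (SE, n = 2 against 2, adjusted p = 0.029, limma) and −4.18 ± 0.33 (adjusted p = 0.00032). This gene lies on chromosome 5, whose genes were lower as a whole in D395A XX cells, as given below.

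Irf2 and Irf1 encode transcription factors that bind interferon-response elements. Irf1, Jak2 and, in the next paragraph, Parp10 were named after their values were seen. No list of interferon genes was counted, so the share of such genes that differed is not known. Irf2 (chr8:46739745-46847458) stood at 9.11 and 14.3 CPM in WT XX and 2.73 and 2.64 CPM in D395A XX, and at 42.2 and 19.9 CPM in WT XiO against 2.95 and 3.33 CPM in D395A XiO. The D395A libraries agreed closely within each table, while the 2 WT XiO libraries lay far apart. It was lower in D395A than in WT by 1.75 ± 0.33 on the log2 scale in XX cells (adjusted p = 0.015) and by 2.86 ± 0.51 in XiO cells (adjusted p = 0.012). Irf1 (chr11:53770014-53778374) differed by less, at 17.8 and 21.7 CPM in WT XX against 12.06 and 11.98 CPM in D395A XX. In XiO cells it was at 34.9 and 46.1 CPM in WT against 14.1 and 17.6 CPM in D395A (−0.67 ± 0.15, adjusted p = 0.027, and −1.30 ± 0.19, adjusted p = 0.0056). The groups did not overlap in either table. Jak2, the kinase that relays signals from several cytokine receptors (chr19:29251803-29313080), was at 12.7 and 11.7 CPM in WT XX and at 4.83 and 6.23 CPM in D395A XX. In XiO cells it was at 16.7 and 18.8 CPM in WT and at 7.51 and 6.77 CPM in D395A (−1.02 ± 0.16, adjusted p = 0.0059, and −1.20 ± 0.16, adjusted p = 0.0033).

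Ddx60, a DExD/H-box helicase induced by viral infection (chr8:61928089-62037695), showed nearly the same difference in both pairs of clones. It was at 15.1 and 13.1 CPM in WT XX against 3.24 and 2.77 CPM in D395A XX. In XiO cells it was at 8.68 and 5.93 CPM in WT against 1.10 and 1.34 CPM in D395A (−1.91 ± 0.18, adjusted p = 0.00035, and −1.89 ± 0.41, adjusted p = 0.030). Gbp2 and its neighbour Gbp2b on chromosome 3 encode guanylate-binding proteins, large GTPases induced by interferon. Gbp2 (142620663 to 142638008) was at 2.58 and 4.86 CPM in WT XX and 0.294 and 0.424 CPM in D395A XX, and at 13.5 and 21.9 CPM in WT XiO and 1.56 and 3.06 CPM in D395A XiO. Its log2 differences were −1.75 ± 0.40 (adjusted p = 0.035) and −2.50 ± 0.43 (adjusted p = 0.011). Gbp2b (142594847 to 142619176) was at 1.26 and 2.63 CPM against 0.168 and 0.0979 CPM in XX cells, and at 8.11 and 12.2 CPM against 0.404 and 1.75 CPM in XiO cells. The WT libraries of both tables lay above all D395A libraries of the same table for both genes (Gbp2b −1.34 ± 0.29, adjusted p = 0.029, and −2.48 ± 0.32, adjusted p = 0.0030). Low values such as these are held back by the pseudocount of 1 CPM, so the log2 differences understate the fold difference in CPM. Trim12c, of the TRIM family of ubiquitin ligases (chr7:104338754-104353349), stood at 6.42 and 6.18 CPM in WT XX and at 1.43 and 2.06 CPM in D395A XX. In XiO cells it stood at 11.8 and 9.43 CPM in WT and 1.68 and 2.30 CPM in D395A (−1.42 ± 0.24, adjusted p = 0.0083, and −1.96 ± 0.31, adjusted p = 0.0067). Trim12c, Gbp2 and Gbp2b have close relatives in the genome, so that reads matching several copies could be missing from or shared between them. Parp10, a mono-ADP-ribosyltransferase, differed by −1.21 ± 0.25 and −1.63 ± 0.25 (adjusted p = 0.023 and 0.0062).

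The bases just upstream of the start of 6 of these genes, from RefSeq on GRCm38.p6, are shown because they hold letter patterns typical of elements that interferon-regulated factors bind. The patterns were chosen after the values had been seen and were searched on both strands in the 250 bases before each start, where they overlapped each other in 0 of the 44 genes of the 51 with a promoter entry. For the first 5, capitals mark GAAANNGAAA or its reverse complement.
Gbp2b, chr3:142594690-142594739, plus strand: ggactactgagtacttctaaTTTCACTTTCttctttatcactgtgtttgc
Gbp2, chr3:142620584-142620633, plus strand: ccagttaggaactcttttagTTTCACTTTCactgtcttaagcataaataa
Trim12c, chr7:104353350-104353398, minus strand: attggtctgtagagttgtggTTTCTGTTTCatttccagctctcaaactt
Irf2, chr8:46739495-46739533, plus strand: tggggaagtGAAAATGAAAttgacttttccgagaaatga
Ddx60, chr8:61928014-61928086, plus strand: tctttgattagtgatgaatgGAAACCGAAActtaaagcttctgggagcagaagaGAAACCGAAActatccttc
For Irf1, capitals mark TTCNNNGAA, the pattern bound by STAT factors.
Irf1, chr11:53769904-53769952, plus strand: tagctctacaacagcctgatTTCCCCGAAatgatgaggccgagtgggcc
GAAANNGAAA was found in 6 of the 38 lower genes with a promoter entry (15.8%, the sixth being Fosl2), in 0 of the 6 higher genes, and in 821 of 27018 promoters (3.04%). TTCNNNGAA was found in 4 of the 38 lower genes (10.5%), in 1 of the 6 higher genes, Rian, and in 1940 of 27018 promoters (7.18%). A match is only a match of letters and was not read as a bound site. The 27018 promoters were not limited to the genes tested, and Gbp2 and Gbp2b are neighbouring relatives. With the patterns chosen after these genes were seen, the shares were not tested and measure no enrichment.

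Several of the lower genes encode other transcription factors and regulators. Maml3, a coactivator of Notch signalling (chr3:51687613-52105006), was at 81.7 and 124 CPM in WT XX and at 35.6 and 32.8 CPM in D395A XX, and at 754 and 359 CPM in WT XiO and at 95.5 and 108 CPM in D395A XiO. The log2 differences were −1.53 ± 0.26 (adjusted p = 0.0083) and −2.35 ± 0.43 (adjusted p = 0.013), and the 2 WT XiO libraries again lay far apart. Npas3, a basic helix-loop-helix PAS factor (chr12:53248677-54072175), was at 32.5 and 56.4 CPM against 16.1 and 16.1 CPM in XX cells and at 73.5 and 92.0 CPM against 12.3 and 20.0 CPM in XiO cells (−1.36 ± 0.24 and −2.32 ± 0.29, adjusted p = 0.011 and 0.0029). Ikzf2, which encodes the zinc-finger factor Helios, stood at 60.9 and 78.9 CPM in WT XX and at 24.9 and 32.5 CPM in D395A XX, and at 164 and 150 CPM in WT XiO and 53.7 and 60.5 CPM in D395A XiO. Its differences of −1.25 ± 0.20 and −1.44 ± 0.18 were close in both tables (adjusted p = 0.0058 and 0.0029). Atxn1, a nuclear regulator of transcription, was lower in D395A by 1.22 ± 0.21 in XX cells and by 1.64 ± 0.17 in XiO cells (adjusted p = 0.0096 and 0.0017). Axin2, a negative-feedback target of Wnt signalling (chr11:108920349-108950781), was at 8.73 and 12.7 CPM in WT XX against 3.45 and 4.50 CPM in D395A XX, and at 19.4 and 32.8 CPM in WT XiO against 4.91 and 6.18 CPM in D395A XiO. The D395A libraries lay below the WT libraries in each table (−1.22 ± 0.26 and −2.01 ± 0.42, adjusted p = 0.026 in both). Samd4, an RNA-binding repressor of translation, was at 57.7 and 97.2 CPM against 27.9 and 26.8 CPM in XX cells and at 182 and 253 CPM against 28.7 and 53.1 CPM in XiO cells (−1.42 ± 0.33, adjusted p = 0.035, and −2.43 ± 0.45, adjusted p = 0.014).

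Krt18, a keratin of simple epithelia (chr15:102028216-102032026), was at 5.45 and 3.04 CPM in WT XX and 0.967 and 0.881 CPM in D395A XX, and at 25.1 and 39.6 CPM in WT XiO and 2.31 and 3.85 CPM in D395A XiO. The differences were −1.41 ± 0.31 (adjusted p = 0.030) and −3.02 ± 0.62 (adjusted p = 0.024). Dsp, the desmosomal protein desmoplakin, differed by −1.25 ± 0.24 and −2.72 ± 0.56 (adjusted p = 0.017 and 0.024). Nes, the intermediate filament protein of neural progenitors (chr3:87971093-87980451), was at 7.99 and 12.8 CPM in WT XX and 4.37 and 3.39 CPM in D395A XX. In XiO cells it was at 35.1 and 31.8 CPM in WT and 3.87 and 6.42 CPM in D395A, which again left no overlap (−1.20 ± 0.26, adjusted p = 0.029, and −2.52 ± 0.29, adjusted p = 0.0020). Col4a5, an X-linked collagen of basement membranes, was at 11.3 and 11.4 CPM against 5.30 and 5.29 CPM in XX cells and at 19.8 and 12.9 CPM against 1.39 and 1.61 CPM in XiO cells (−0.97 ± 0.23, adjusted p = 0.042, and −2.76 ± 0.31, adjusted p = 0.0020). Chst15, a sulfotransferase acting on chondroitin sulfate, differed by −1.36 ± 0.29 and −2.13 ± 0.32 (adjusted p = 0.026 and 0.0059). The phox-domain gene Pxdc1 differed by −1.41 ± 0.31 and −1.97 ± 0.30 (adjusted p = 0.028 and 0.0063). The smallest of the 45 differences was that of Efr3a, which helps anchor a phosphatidylinositol kinase at the plasma membrane. It was at 170 and 162 CPM against 112 and 130 CPM in XX cells and at 167 and 156 CPM against 108 and 105 CPM in XiO cells (−0.46 ± 0.10 and −0.60 ± 0.09).

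Of the 6 higher genes, Abca1 and Ctnnal1 both lie on chromosome 4 and were the only 2 of the 51 that stayed called in both tables whichever of the 8 libraries was left out. Abca1, which exports cholesterol from cells (chr4:53030789-53159895), was at 90.8 and 106 CPM in WT XX and 183 and 208 CPM in D395A XX, and at 27.4 and 28.8 CPM in WT XiO and 241 and 182 CPM in D395A XiO. It was higher in D395A by 0.99 ± 0.12 (adjusted p = 0.0014) and by 2.85 ± 0.20 (adjusted p = 0.00015). The D395A libraries of both tables lay at similar levels while the WT libraries did not. Ctnnal1, which encodes alpha-catulin (chr4:56810935-56865211), was at 175 and 179 CPM against 275 and 276 CPM in XX cells and at 103 and 105 CPM against 180 and 216 CPM in XiO cells (0.64 ± 0.10, adjusted p = 0.0047, and 0.92 ± 0.12, adjusted p = 0.0030). Rian, the maternally expressed non-coding RNA of the imprinted Dlk1–Dio3 cluster (chr12:109603945-109661711), was at 3709 and 4020 CPM in WT XX and 5532 and 6472 CPM in D395A XX, and at 2368 and 2262 CPM in WT XiO and 5505 and 6486 CPM in D395A XiO. It was higher in D395A by 0.63 ± 0.11 (adjusted p = 0.011) and by 1.37 ± 0.17 (adjusted p = 0.0028), and had the highest CPM of the 51 genes in WT and D395A alike. Mok, a kinase related to the MAP kinases (chr12:110807798-110840939), was higher in D395A by 0.51 ± 0.10 and 1.38 ± 0.24 (adjusted p = 0.021 and 0.011). Slc15a2, a peptide transporter, was at 8.76 and 9.62 CPM against 16.8 and 23.5 CPM in XX cells and at 12.3 and 7.68 CPM against 27.4 and 24.3 CPM in XiO cells (1.03 ± 0.18 and 1.32 ± 0.31, adjusted p = 0.0094 and 0.045). Ryr2, a calcium-release channel, was at 206 and 194 CPM against 269 and 299 CPM in XX cells and at 109 and 100 CPM against 162 and 174 CPM in XiO cells (0.50 ± 0.10 and 0.68 ± 0.10, adjusted p = 0.018 and 0.0048).

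**Figure D2:**
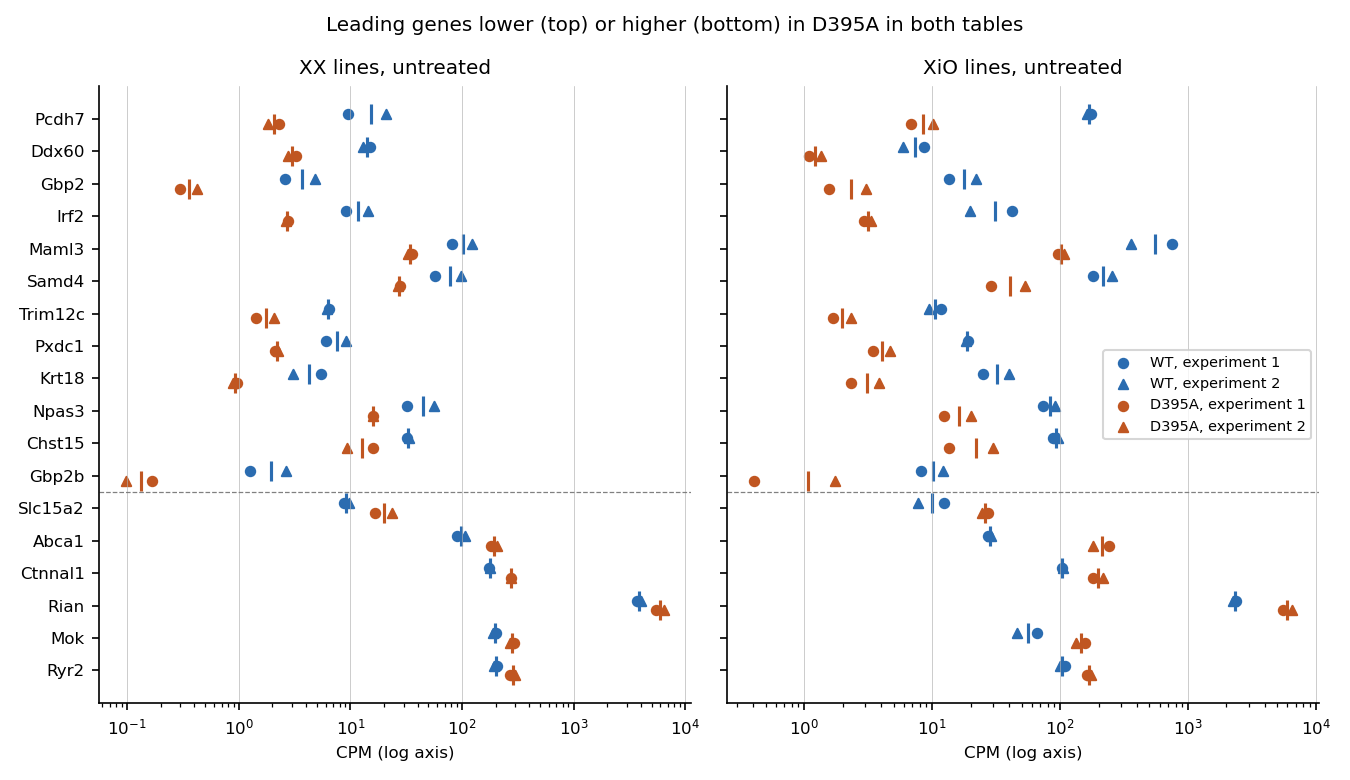
Level in each untreated library (CPM, log axis) of the 12 leading lower and the 6 higher same-direction genes in the XX table (left) and the XiO table (right). Circles and triangles are the first and second experiment of WT (blue) and D395A (orange), and bars mark the mean of 2 libraries. For Pcdh7, Ddx60 and Gbp2 the D395A libraries lie below the WT libraries of their table, and for Abca1, Ctnnal1 and Rian above them.

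All 8 genes called in opposite directions were lower in D395A XX and higher in D395A XiO cells. Themis, a T-cell signalling protein (chr10:28668395-28882749), was at 5.51 and 8.51 CPM in WT XX and 1.39 and 1.27 CPM in D395A XX, but at 3.30 and 5.56 CPM in WT XiO and 32.6 and 17.4 CPM in D395A XiO. The next by size were Ccdc141 (−1.50 and 1.61), Naa11, a catalytic subunit of an N-terminal acetyltransferase (−1.46 and 1.45), and Cd38, an enzyme that breaks down NAD (−0.83 and 1.11). The difference between tables was itself tested for the 13042 genes, and 238 were called (1.82%, limma). These included all 8 opposite genes and 3 of the 51 same-direction genes, Abca1, Col4a5 and Nuak1, an AMPK-related kinase. Of the 238, 196 had an XX minus XiO difference below 0. Genes of chromosomes 5 and 12 were among these, for example Naa11 and Eml5. Chromosome 5 as a whole had a median of −0.37 in XX cells and 0.17 in XiO cells, and chromosome 12 of −0.02 and 0.29. The part of these chromosome-wide medians in the 238 calls was not tested. The count of 238 also depended on single libraries. It was 137, 202, 133 and 108 without the first or second WT XX or the first or second D395A XX library, and 114, 174, 121 and 144 without the matching XiO libraries.

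The lower and higher calls were not spread evenly over the chromosomes. In XX cells, 137 of the 426 lower genes lay on chromosome 5, where 92.3% of 873 tested genes were below 0 and the median log2 difference was −0.37. All 15 windows of 10 Mb along this chromosome had medians between −0.86 and −0.31. In XiO cells the chromosome with the highest median was 12, where 86 of the 189 higher genes lay among 481 tested. There the 4 windows from 80 to 120 Mb had medians of 0.67 to 0.80, and the other 8 lay between −0.13 and 0.15. In both tables the window from 140 to 150 Mb of the X chromosome was low, with a median of −0.32 over 19 genes in XX cells and −0.65 over 18 in XiO cells, and it holds the same-direction genes Tsc22d3 and Col4a5. Chromosome 5 had a median of 0.17 in XiO cells, with all 15 windows above 0, opposite to its direction in XX cells. A change of DNA copy number was not measured here. Of the 51 same-direction genes, 3 lay on chromosome 5 (Pcdh7, Fosl2 and Trim54) and 4 on chromosome 12 (Rian, Mok, Npas3 and Pxdn). Rian and Mok fall in the stretch of chromosome 12 that was higher as a whole in D395A XiO cells. Without genes of these chromosomes, 44 same-direction genes and 4 opposite genes remained, 40 of the 44 lower in D395A.

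**Figure D3:**
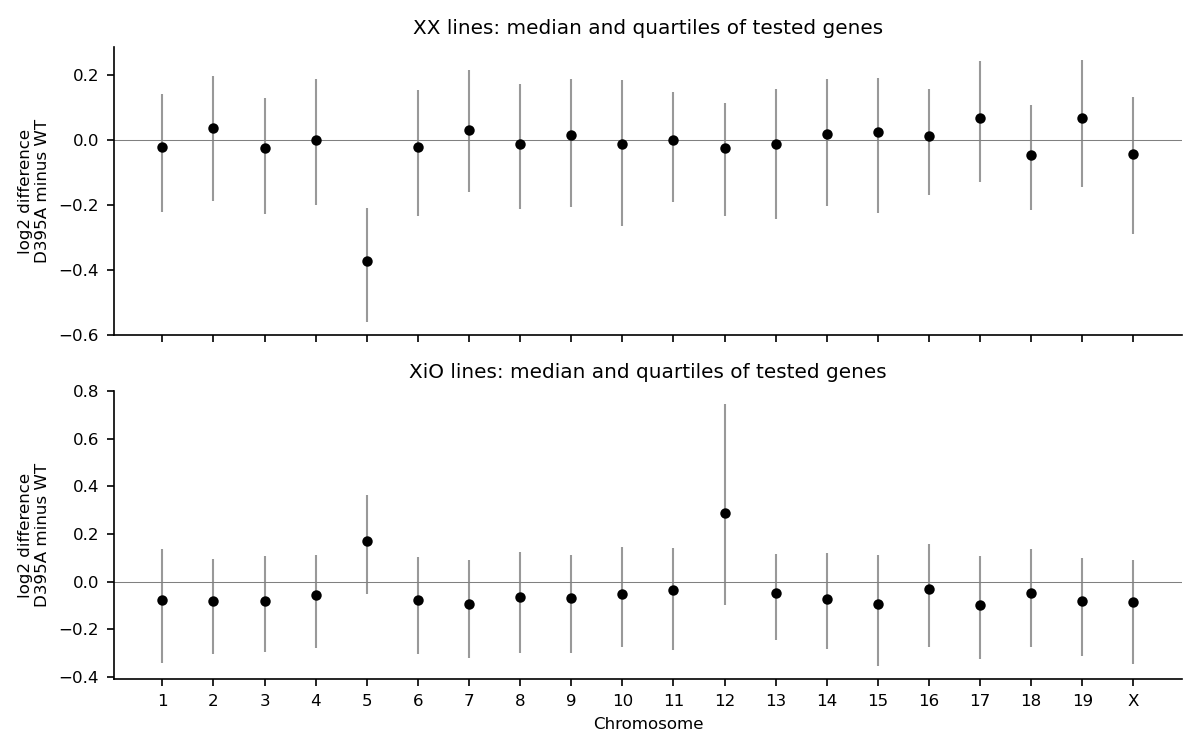
Median and quartiles of the log2 difference between D395A and WT, untreated, for the tested genes of each chromosome in the XX table and in the XiO table. Chromosome 5 lies at −0.37 in XX cells and chromosome 12 at 0.29 in XiO cells.

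Genes of the m6A pathway itself did not differ by limma call, where 3.93% of all XX genes and 3.61% of all XiO genes did. Of 11 writers and erasers, 0 were called in either table by limma, edgeR or DESeq2, and 0 had an unadjusted p below 0.05 (medians −0.02 and −0.04, against −0.02 and −0.05 over all genes). Of 12 readers, 0 were called by limma or edgeR, 1 had an unadjusted p below 0.05 in each table, and DESeq2 called Igf2bp3 in XiO cells (medians 0.04 and −0.00). Of 9 members of nuclear exosome adaptor complexes, Zcchc8 of the NEXT complex was lower in XX cells (−0.38, against the median of −0.37 of its chromosome 5) though not by edgeR or DESeq2, and none was called by any tool or had an unadjusted p below 0.05 in XiO cells (medians 0.05 and 0.00). Among naive and core pluripotency genes, 24 were tested in each table with medians of 0.18 and 0.37. Rex2, which lies among related zinc-finger genes on chromosome 4, was lower in XX cells, and Klf4 was higher in XiO cells, at 11.6 and 11.8 CPM in WT against 23.5 and 25.8 CPM in D395A (1.01, adjusted p = 0.029). Of the 24, 3 had an unadjusted p below 0.05 in XX cells and 8 in XiO cells.

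Genes of primed cells and early differentiation had medians of −0.77 over 13 genes in XX cells and −1.58 over 15 in XiO cells. For the counts in this paragraph, limma called 0.741% of all XX genes higher and 3.19% lower. Of all XiO genes it called 1.41% higher and 2.21% lower. In XX cells limma called 3 lower (Nes, Lef1 and Zic2) and 1 higher, where edgeR called 2 in all and DESeq2 7. The latter was Pax6, an eye and neural transcription factor, at 1.50 and 2.53 CPM in WT and 12.1 and 13.9 CPM in D395A, named after its value was seen. In XiO cells 7 of the 15 were called lower and none of them higher. They included Fgf8, a growth factor of gastrulation, at 15.2 and 14.6 CPM in WT and 0.809 and 0.481 CPM in D395A (−3.28, adjusted p = 4.1e-05), and Fgf5, a marker of primed cells (−2.34). T, the mesoderm factor Brachyury, was at 31.2 and 75.4 CPM in WT XiO against 6.24 and 7.28 CPM in D395A XiO, while in XX cells it was at 4.01 and 6.78 CPM in WT and 2.77 and 7.28 CPM in D395A, which overlapped. By limma, Nes was the only member called in both tables, while DESeq2 also called Zic2, Fgf8 and Eomes in both. Trophoblast genes had medians of −0.40 and −0.84 over 6 tested, with Krt8 and Krt18 lower in XX cells and Krt7 and Krt18 lower in XiO cells. Primitive endoderm genes had medians of −0.55 over 9 and −0.62 over 10, with Sparc lower in XX cells, and Lama1, Col4a1 and Col4a2 lower and Gata6 higher in XiO cells. The feeder markers, of which all but 1 in XX cells and all in XiO cells were above 0 in some untreated library, were lower too. Of 6 tested in XX cells 1 was lower (Col5a2) with a median of −0.61, and of 10 tested in XiO cells 5 were lower with a median of −1.45. Col1a1, the main collagen of fibroblasts, was at 4.81 and 4.78 CPM in WT XiO and at 0.231 and 0.446 CPM in D395A XiO. None of the feeder markers was called in both tables.

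Of imprinted genes, 38 were tested in XX cells (1 higher, 4 lower, median −0.12, where 0.741% and 3.19% of all genes were called higher and lower) and 39 in XiO cells (2 higher, 1 lower, median −0.08, against 1.41% and 2.21% of all genes). By limma, Rian was the only one called in both, while DESeq2 also called Sgce, Peg10 and Gab1 in both. No germline gene was called by limma (23 and 19 tested, medians −0.29 and 0.11), where 5 in each table had an unadjusted p below 0.05 and DESeq2 called 2 in each and edgeR 1 in XX cells. No target of p53 was called by limma or edgeR (21 and 20 tested, medians 0.06 and 0.38), where 2 and 4 had an unadjusted p below 0.05 and DESeq2 called 2 in XX cells. Of genes of the two-cell-like state, 2 were tested in each table, and 0 were called by any of these tools or had an unadjusted p below 0.05 (medians −0.08 and 0.35). Of the DNA methylation machinery, 15 were tested in XX cells with 0 called by limma or edgeR, 4 by DESeq2 and 4 at an unadjusted p below 0.05 (median 0.11), and 16 in XiO cells, where Tet1 was higher and Dnmt3b lower (median −0.01). The 5 genes of the Rosa26 locus, where the transgenes sit, had 0 called by limma, edgeR or DESeq2, 1 with an unadjusted p below 0.05 in each table, and a median of 0.08 in both. The non-coding Gt(ROSA)26Sor differed by −0.42 in XX cells and 0.77 in XiO cells (adjusted p = 0.17 and 0.14).

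Xist, the RNA that silences the X chromosome in cis, was at 152 and 360 CPM in WT XX and 123 and 79.2 CPM in D395A XX without Dox, and the difference did not pass the test (−1.23 ± 0.60, adjusted p = 0.33). In XiO cells it was far lower, at 1.22 and 3.21 CPM in WT and 5.72 and 8.48 CPM in D395A, and was called higher in D395A (1.39 ± 0.29, adjusted p = 0.024). Of 8 tested genes of the X inactivation centre, 0 were called by limma, edgeR or DESeq2 in XX cells (1 at an unadjusted p below 0.05, median −0.41), and in XiO cells Xist was higher (median 0.20). Of 6 nuclear lncRNAs, 0 were called by the same tools in XX cells (1 at an unadjusted p below 0.05, median −0.01) and Xist alone by limma in XiO cells (median 0.20). The differences of Kcnq1ot1 (−0.12 and 0.20), Neat1 (0.09 and 0.21) and Malat1 (−0.34 and −0.41) did not pass the test. In XX cells the share of allele-specific reads from the castaneus X chromosome over 409 X-linked genes had medians of 0.471 and 0.486 in WT and 0.474 and 0.470 in D395A, and 8 genes were called (1.96%, limma on the ratios). Of these, 2 had a higher ratio in D395A, among them Efhc2 (0.0357 and 0.0447 in WT, 0.302 and 0.350 in D395A) and Klhl13, and 6 a lower one, among them Arhgap6 (0.547 and 0.557 against 0.269 and 0.300). These genes were named after their values were seen. The number was 8, 3, 5 and 0 without the first or second WT or the first or second D395A library. None of the 4 same-direction genes with a ratio (C430049B03Rik, Tsc22d3, Col4a5 and Scml2) was among them.

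Libraries of the same clones with Dox did not enter the contrasts that chose the 51 genes. They did share in the spread and the filter on low values used for these genes, and had the same replicate numbers. Any lasting difference between the clones recurs in them, so agreement in these libraries cannot tell transgene and clone apart. With Dox, all 45 lower genes were again below 0 in XX cells and 44 of 45 in XiO cells, the exception being Tsc22d3, a glucocorticoid-induced gene (0.35 in XiO cells). Over all genes, 48.6% lay below 0 with Dox in XX cells and 56.1% in XiO cells. In a fit without the untreated libraries, 31 of the 45 were called lower with Dox in XX cells (2.32% of all genes) and 30 in XiO cells (1.26%), and 21 in both. The medians of the 45 were −1.13 and −1.57, against 0.01 and −0.04 over all genes. All 6 higher genes were again above 0 in both tables, where 51.4% of all XX genes and 43.9% of all XiO genes were. Their medians were 0.61 and 1.16, and 5 were called in both (0.599% of all XX genes and 0.84% of all XiO genes were called higher). With dTAG-13 alone, which degrades the tagged endogenous METTL3, 38 of the 45 lower genes were below 0 in both tables. Over all genes, 38.5% lay below 0 in XX cells and 45.3% in XiO cells. Of the 45 lower genes, 12 were called in XX cells (2.94% of all genes) and 23 in XiO cells (1.45%). The medians of the 45 were −0.62 and −1.33, against 0.10 and 0.04 over all genes. With dTAG-13 and Dox the count below 0 in both was 39, where 43.0% of all XX genes and 44.1% of all XiO genes were below 0. Of the 45, 12 were called in XX cells (2.42%) and 23 in XiO cells (1.21%). Of the 6 higher genes, 5 were above 0 in both tables with dTAG-13 alone, where 3 were called in XX cells (2.87% of all genes) and 4 in XiO cells (2.2%), and 5 with both drugs, where 2 and 3 were called (1.48% and 1.87%). The shares of all genes above 0 were 61.5% in XX cells and 54.7% in XiO cells with dTAG-13 alone. With both drugs these shares were 57.0% and 55.9%.

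**Figure D4:**
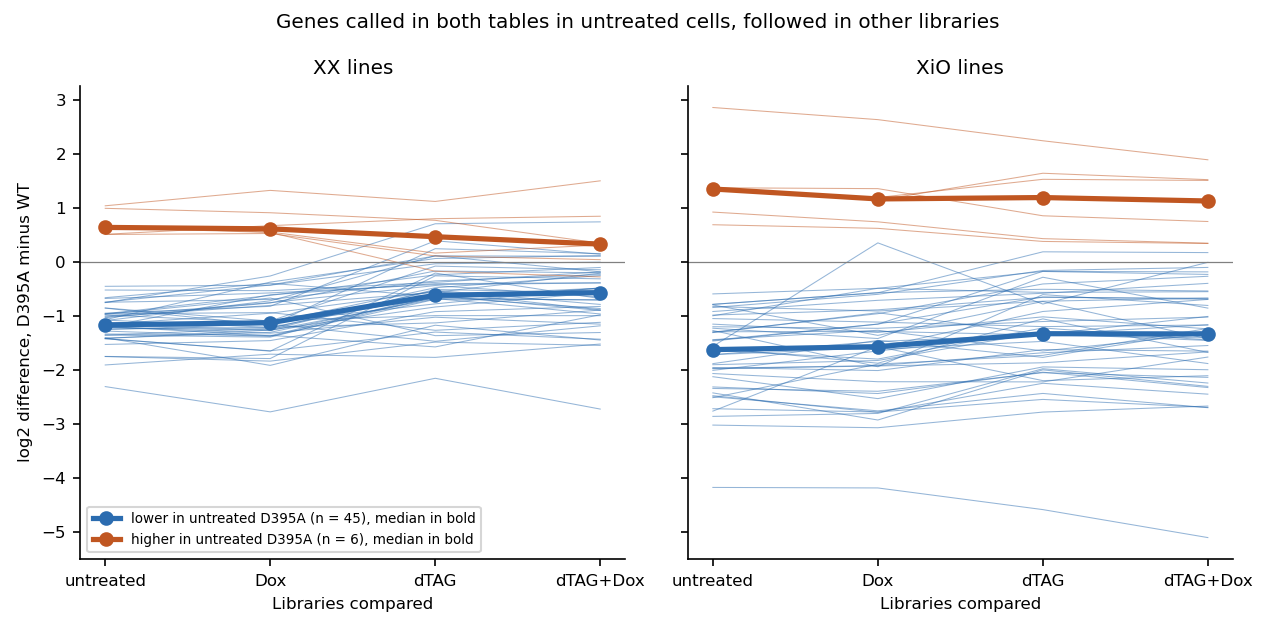
Log2 difference between D395A and WT for the same-direction genes in untreated libraries, which chose them, and in libraries with Dox, dTAG-13, and both, in XX and XiO cells. The medians of the 45 lower genes run from −1.13 with Dox to −0.57 with both drugs in XX cells and from −1.57 to −1.34 in XiO cells.

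The parent clone H5, which carries no transgene, was sequenced in another table that was normalised separately, with 1 untreated library, so its values are given side by side with no test. For the lower genes, H5 lay below both WT libraries for 36 of 45 genes in XX cells and for 38 in XiO cells. It lay above both D395A libraries for 35 genes in XX cells and for 19 in XiO cells, and below both for 6 and 18. For the 6 higher genes, H5 lay above both WT libraries for 2 in XX cells and 5 in XiO cells. It lay below both WT libraries for 3 and 0, and below both D395A libraries for 5 and 4. For Irf2 it was at 2.53 CPM, near the D395A libraries of both tables, and for Ddx60 at 14.3 CPM, near the WT XX libraries. For Pcdh7 it was at 4.10 CPM, between the groups of the XX table. For Abca1 it was at 89.0 CPM and for Ctnnal1 at 167 CPM, both just below the WT XX libraries and well above the WT XiO libraries. For Rian it was at 5620 CPM, within the range of the D395A libraries. The summed level of the feeder markers was 48.5 CPM in H5, lower than in every WT library here.

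In the METTL3 degron line, 4 clones without a transgene were compared with themselves after dTAG-13. Over all 13367 genes tested, 2260 rose (16.9%) and 848 fell (6.34%), with a median of 0.21. Of the 44 lower genes tested there, 11 rose (Agpat3, Axin2, Dsp, Efr3a, Gbp2, Gprc5c, Irf2, Nes, Npas3, Sh3bp5 and Trim54) and 0 fell, with a median of 0.34. Of the 6 higher genes, 0 rose and 3 fell (Ctnnal1, Rian and Ryr2), with a median of −0.19. The summed feeder markers were higher with dTAG-13 in all 4 clones, from 55.5 to 104 CPM in G4, 59.0 to 94.2 CPM in H1, 54.7 to 70.0 CPM in C3 and 48.5 to 74.0 CPM in H5, and their part in the rises was not tested. Scaling to the median ratio over autosomal genes also gave 14 calls, 8 that rose and 6 that fell. Of the 14 calls made without this scaling, 11 were among them. Without clone G4, H1, C3 or H5 in turn, 7, 13, 16 and 7 of the 51 were called. Irf2 rose by 1.61 ± 0.22 (adjusted p = 0.00058, limma with clone as a block), with 1.90, 1.67, 1.10 and 1.76 in clones G4, H1, C3 and H5. Ryr2 fell by 0.81 ± 0.09 (adjusted p = 0.00018). In the same 4 clones, the medians of the lower genes were 0.33, 0.25, 0.36 and 0.45, against 0.15, 0.26, 0.15 and 0.27 over all genes, so in clone H1 they lay at about the median of all genes.

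The transgenic clones were compared with themselves as well, with dTAG-13 and Dox against Dox alone. In clones with the WT transgene, 0 genes were called in either table by limma, with 39 and 14 genes at an unadjusted p below 0.05. In D395A XX cells 328 genes rose (2.45%) and 98 fell (0.733%), and in D395A XiO cells 7 rose (0.0521%) and 0 fell. Of the 45 lower genes, 8 rose in D395A XX cells (Agpat3, App, Atxn1, Irf2, Map3k8, Phldb2, Prickle1 and Sh3bp5) and 0 in D395A XiO cells by limma, where 13 had an unadjusted p below 0.05. Their medians were 0.53 and 0.25 in the D395A clones, against 0.06 and 0.11 over all genes. In the WT clones they were −0.00 and 0.02, against 0.04 and 0.01 over all genes. From Dox to dTAG-13 and Dox, the summed feeder markers went from 48.1 to 61.1 and from 40.7 to 61.3 CPM in the 2 D395A XX experiments, and from 69.8 to 73.7 and from 77.4 to 78.3 CPM in WT XX. In D395A XiO they went from 51.5 to 68.1 and from 94.4 to 92.4 CPM, and in WT XiO from 111.4 to 111.2 and from 156 to 151 CPM. Their part in the responses was not tested. Of the higher genes, Rian fell in D395A XX cells, with a median of the 6 of −0.27. The difference in response between D395A and WT was called for 0 of the 51 genes in either table by limma, with 13 of the lower genes in XX cells and 4 in XiO cells at an unadjusted p below 0.05, so responses in D395A and WT clones were not shown to differ for single genes.

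**Figure D5:**
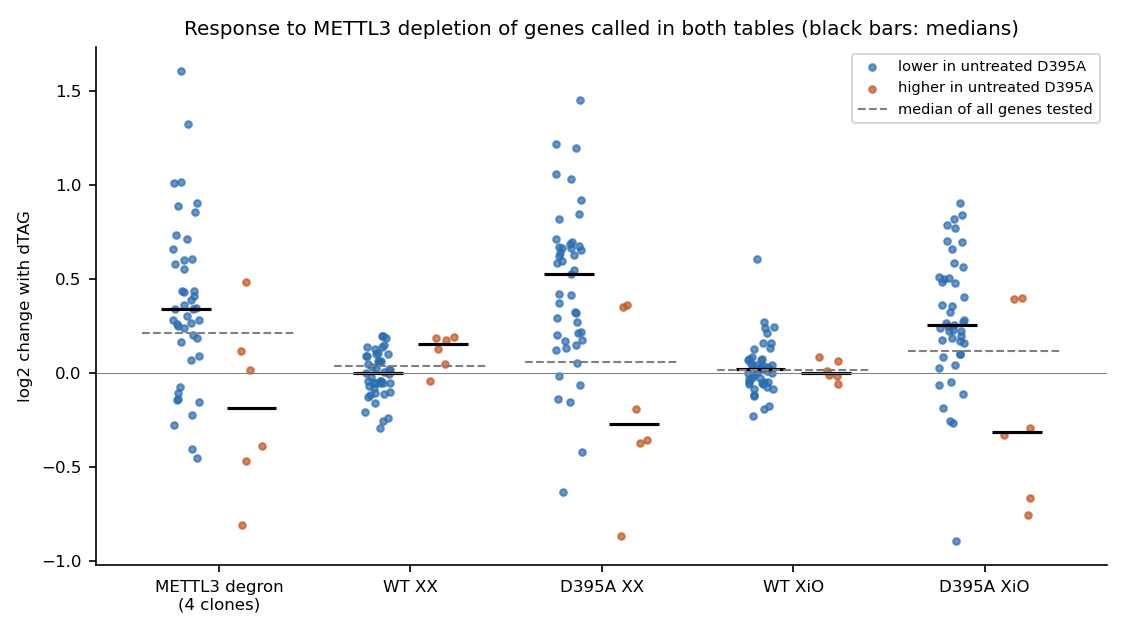
Log2 change of the same-direction genes on METTL3 depletion, in the 4 degron clones without a transgene (dTAG-13 against untreated) and in WT and D395A clones (dTAG-13 and Dox against Dox). Points are genes, black bars medians of the lower and higher genes, and dashed lines the median of all genes tested. The median of the 45 lower genes is 0.53 in D395A XX cells and −0.00 in WT XX cells.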

How the data were processed

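Chromatin-associated RNA was sequenced by the authors as stranded total RNA libraries. Per their methods, reads were aligned to mm10 with STAR after ribosomal reads had been removed with Bowtie2, counted per gene over whole transcripts, introns included, with featureCounts, and scaled with edgeR. The deposited expression values are CPM per gene and library, in 1 table for XX and 1 for XiO transgene lines and 1 for the METTL3 degron line, each normalised separately. The deposited allelic ratios are fractions, without read numbers, so their depth is unknown. The METTL3 table also has 4 columns that match no sample label, which were left aside.

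The CPM values were whole multiples of 1 read (100% within 0.1 reads), from which read numbers and depth were recovered for count tests. Tests were run in R 4.3.3 with limma 3.58.1 on log2(CPM + 1), for genes whose mean over the 16 libraries of a table reached 1 CPM (group means, moderated variance with a trend, two-sided, Benjamini-Hochberg over all genes tested). A gene is called at an adjusted p below 0.05. edgeR 4.0.16 and DESeq2 1.42.0 were run on the recovered reads as alternatives, along with other pseudocounts, filters, scalings, blocks and omissions of each library. Scripts were tested on simulated data. Ratios were fitted with limma without a log.

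Members and gene lists were chosen with earlier results of these data known. Genes were named by rule: the first 12 in each direction by the smaller of the 2 differences, the first 4 called in opposite directions, members of lists called in both tables and up to 4 others per list, and Mettl3, Xist, Kcnq1ot1, Neat1, Malat1 and Gt(ROSA)26Sor. Other genes named, among them Irf1, Jak2, Axin2, Dsp and Pax6, were chosen after their values were seen. Titles, not the treatment field, gave the hours of dTAG-13 alone. Neither clone genotyping nor copy number was analysed here. The result of 1 gene is not reported here.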

Additional observations from a re-analysis of the deposited data

Results flagged for a closer look

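The D395A to WT difference differed between XX and XiO cells for 15 of the genes named, by the limma test of the difference itself. Values are the XX difference minus the XiO difference on the log2 scale. Among the same-direction genes it was −1.87 for Abca1, higher in D395A, and 1.79 for Col4a5 and 1.16 for Nuak1, lower in D395A. All 3 differences were larger in XiO cells. For the genes called in opposite directions it was −3.99 for Themis, −3.12 for Ccdc141, −2.91 for Naa11, −2.08 for Cox7b2, −1.94 for Cd38, −1.84 for Emp1, −1.37 for Eml5 and −1.12 for Eps8. Naa11, Cd38 and Cox7b2 lie on chromosome 5 and Eml5 on chromosome 12, the chromosomes with medians away from 0. It was −1.81 for Rex2, a zinc-finger gene of the pluripotency list. Related genes near it on chromosome 4 had like values, among them Zfp600 (−2.15), Gm13152 (−1.74) and Zfp534 (−1.54), and reads that match several copies could be missing from or shared between them. It was 1.11 for the DNA methyltransferase Dnmt3b and 2.11 for Pax6. For Gt(ROSA)26Sor, the transcript of the locus that holds the transgenes, it was −1.19, with 22.3 and 24.3 CPM in WT XX, 18.6 and 15.8 CPM in D395A XX, 22.9 and 28.6 CPM in WT XiO and 39.6 and 49.7 CPM in D395A XiO. As each group is 1 clone, differences between pairs of clones and between XX and XiO cells cannot be told apart.

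In the METTL3 degron table, 1 of the 19 groups of 4 clones examined held a clone far from the others, where chance gives about 1 in 20. It was clone H1 for Pxdc1, at 0.25 on the log2 scale with dTAG-13 against untreated, where the other clones lay between 0.47 and 0.52.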

How the results depend on the processing

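The counts of called genes (525 in XX cells, 486 in XiO cells, 51 in both in the same direction and 8 in opposite directions) changed with several settings. DESeq2 gave 1057, 905, 142 and 32, and the 4 untreated libraries of each table alone, with fewer libraries to estimate the spread, gave 41, 1, 0 and 0. Leaving out 1 library gave 144 to 221, 104 to 197, 12 to 31 and 0 to 3. For the other settings the cause was not tested. A pseudocount of 0.1, a filter of at least 5 CPM, all genes above 0, TMM or median-ratio scaling, and edgeR moved each count by less than 1.5 times, with 38 to 52 same-direction genes. Among settings chosen after seeing the data, a random block of clone and experiment (consensus correlation 0.68 in XX and 0.82 in XiO cells) gave 622, 390, 84 and 8, with 33 of the 51 genes still called in both tables, and omission of chromosomes 5 and 12 left 44 same-direction and 4 opposite genes. The 238 calls of the difference between tables became 1 with the 8 untreated libraries alone and 108 to 202 without 1 library. The 8 allelic-ratio calls became 0 with the 4 untreated libraries and 0 to 8 without 1 library. Of the 51 genes followed in treated libraries, 50 kept both signs with Dox, 43 with dTAG-13 and 44 with both. The 14 calls in the METTL3 degron table became 9 with dTAG-13 and Dox against Dox and 7 to 16 without 1 clone.

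Replicate numbers were shared by the groups, but pairing was not established, with 2 pairs a table. Deviations of untreated libraries with the same number correlated at −0.20 over 13364 genes in XX cells and 0.64 over 13448 in XiO cells. Within a clone, deviations of libraries with the same number correlated at 0.43 to 0.88 across treatments in XX cells. In XiO cells these correlations were 0.72 to 0.92. The libraries of a table are thus not independent, while the main fits treat them as if they were, so the adjusted p-values can be too small. With the replicate block, 921, 2696, 285 and 71 genes were called, 1144 for the difference between tables and 4 for the ratio, and all 51 kept both calls. A replicate block with crossed numbers, added after seeing the data, called 1663 genes in XX cells.

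Of 2480 alternative values of the 92 genes named, 1830 kept direction and side of the threshold, 616 lost and 17 gained the call, and 17 changed sign, none of a called value. For Mettl3 in XiO cells the sign turned with TMM (0.080), median-ratio scaling (0.066), edgeR (0.067) and DESeq2 (0.064). The other sign changes came from leaving out 1 library. In XX cells this gave −0.29 to 0.051 for Kcnq1ot1 (above 0 without the second WT library), −0.26 to 0.29 for Klf4 and −0.73 to 0.41 for T (turned without the second WT or the first D395A library), −0.18 to 0.36 for Neat1 (below 0 without the first D395A library) and −0.027 to 0.45 for Dnmt3b (below 0 without the second D395A library). In XiO cells it gave −0.19 to 0.18 for Mettl3 (above 0 without the first WT or the second D395A library), −0.55 to 0.96 for Neat1 (below 0 without the second WT or the first D395A library), −1.40 to 0.078 for Col5a2 (above 0 without the first D395A library) and −0.28 to 1.58 for Grb10 (below 0 without the second D395A library). Of the 51 genes, Abca1 and Ctnnal1 kept both calls in 17 of 18 settings, Jak2 in 16, and Ninj2 and Trim54 in 3.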

Other observations

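Among same-direction genes not described above, several act in signalling and the nucleus. Phldb2, a scaffold at the cell cortex, was at 46.0 and 44.5 CPM in WT XX and 19.5 and 16.6 CPM in D395A XX, and at 93.3 and 130 CPM in WT XiO and 28.3 and 37.7 CPM in D395A XiO (−1.28 ± 0.15 and −1.72 ± 0.35). App, the amyloid precursor protein, differed by −1.17 ± 0.16 and −1.16 ± 0.27, and Tenm3, a teneurin of cell contacts, by −0.68 ± 0.07 and −0.99 ± 0.23. Lrp2, the endocytic receptor megalin, was at 70.1 and 86.1 CPM against 35.97 and 36.46 CPM in XX cells and at 410 and 435 CPM against 70.8 and 141 CPM in XiO cells. Meis2, a homeobox factor, and Nab1, a corepressor of EGR factors, were among the few with the larger difference in XX cells (−1.21 against −0.80 and −1.01 against −0.79). Hormad2, of meiotic chromosome axes, was at 160 and 111 CPM in WT XX and 70.0 and 65.9 CPM in D395A XX, and at 30.4 and 18.2 CPM in WT XiO and 5.49 and 4.98 CPM in D395A XiO. Scml2, an X-linked Polycomb-related gene, differed by −0.86 ± 0.18 and −1.59 ± 0.21. In the XX comparison, the first 10 Mb of chromosome 2 had a median of −0.77 over 27 genes.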
